A study of Mus musculus with 12 samples.

Results

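The genes of the SUMO pathway described here are 8 of the 20540 genes with a value in 12 RNA-seq libraries of mouse oligodendrocyte progenitor cells (OPCs), the glial precursors of myelinating cells. They were chosen by symbol: Sae1 and Uba2, which encode the activating enzyme, Sumo2 and Sumo3, which encode SUMO proteins, the ligase genes Pias1 and Pias2, and the protease genes Senp1 and Senp2. All 8 had a row and all 8 passed the filter on low values in every comparison. Measured values of these libraries entered the choice, and which comparison they came from is not recorded. The mimic difference in whole-cell RNA, where Sae1 was known as one of the leading rises, was taken as the one used, so the members' values there are a description and carry no test. The p-values in the other comparisons hold only as far as that reading is right. Those between mimics in pulldown RNA also assume cultures separate from those of whole-cell RNA, which is not known here.

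The mice were C57BL/6, aged 6 to 7 days after birth, the tissue was brain, and the OPCs were kept in SATO medium with PDGFRA, as the labels spell it. They were transfected with a miRNA mimic, a synthetic RNA that acts as a mature microRNA, carrying a biotin tag by which bound RNA can be pulled down. The 4 groups of 3 libraries were pulldown RNA under biotin-tagged miR-27a mimic, pulldown RNA under biotin-tagged control mimic, whole-cell RNA under miR-27a mimic and whole-cell RNA under control mimic. All groups were transfected and carry a biotin-tagged mimic, and none is an untransfected culture. The sources used here do not give the control mimic's sequence. They do not say whether replicates came from separate cultures either, and p-values therefore cover spread among these libraries, which may be technical.

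Libraries held 15548418 to 24972188 assigned reads. Over them each member had at least 116 reads in every library (Senp1 being the lowest), and Uba2 had the most, at up to 5830. Levels are CPM, reads scaled to the normalised depth of each library. The summed level of 6 OPC markers was 2945 to 3257 CPM in pulldown miR-27a, 2578 to 2657 in pulldown control, 1373 to 1426 in whole-cell miR-27a and 1318 to 1354 in whole-cell control libraries. Markers of other glia were also high: 5 astrocyte markers summed to 3335 to 7026 CPM and 5 markers of mature oligodendrocytes to 2364 to 8706 CPM over the 12 libraries. Microglial markers summed to at most 17.8 CPM, neuronal markers to at most 219 CPM and endothelial, mural and fibroblast markers to at most 87.5 CPM. Levels within these lists were uneven. Rbfox3 and Cldn5 were under 1 CPM in every library, while the neuronal list also held Tubb3 at 85.9 to 169 CPM and Snap25 at up to 29.1 CPM. Acta2 reached 49.8 CPM and Dcn 48.6 CPM.

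SUMO is a small protein that is joined to lysines of other proteins, much as ubiquitin is. The Sae1 and Uba2 proteins form a dimer, the SUMO E1, which activates SUMO for its transfer to targets. PIAS proteins are E3 ligases that help to choose the target, and SENP proteases both trim the SUMO precursors and remove SUMO from targets. Sumo2 and Sumo3 proteins are nearly alike once trimmed and can form chains, and SUMO conjugation is known to act in transcription, DNA repair and the separation of chromosomes in mitosis.

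MicroRNAs bind mainly through the seed, bases 2 to 8, to matching sites in 3′ untranslated regions (UTRs). The mature miR-27a-3p sequence from RefSeq (GRCm38.p6, chromosome 8, plus strand) is shown with its seed in capitals, because it sets what counts as a site in the members.
miR-27a-3p: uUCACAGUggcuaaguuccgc

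Sites were searched on the transcript strand of the longest 3′ UTR of each gene's protein-coding transcripts in GENCODE M21 (GRCm38). The letters were ACTGTGAA, the 8mer, and the 7mers ACTGTGA and CTGTGAA, each site being counted once as its longest form. No member held an 8mer, and 3 of 8 held a 7mer, against 27.9% of 15560 genes with an 8mer or 7mer and 6.16% with an 8mer. Sae1, with a UTR of 787 bases, held none of these letters, nor did Uba2, Sumo2, Sumo3 or Pias2. The members with a site had UTRs of 3600 bases (Pias1), 4146 bases (Senp1) and 2574 bases (Senp2), against a median of 1082 over all genes. The 4 sites are shown with the matching letters in capitals. They are matches of letters and not measured binding.
Pias1 (chromosome 9, 7mer): ttgagacaagtCTGTGAAaccgaatgaaa
Senp1 (chromosome 15, 7mer, first): aaactttggtgCTGTGAAggggtgaggga
Senp1 (chromosome 15, 7mer, second): acttgagacccACTGTGAcccccaggagt
Senp2 (chromosome 16, 7mer): gattcaaagtaACTGTGAgcatccatgtt

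Sae1 stood far above its level under control mimic in both kinds of RNA, while its partner Uba2 did not. Sae1 (ENSMUSG00000052833.9, chromosome 7, 16320234 to 16387806, minus strand, GRCm38) encodes the smaller E1 subunit. In pulldown RNA it was at 144, 109 and 127 CPM under miR-27a mimic, against 62.3, 61.3 and 62.3 CPM under control mimic. In whole-cell RNA it was at 163, 166 and 161 CPM under miR-27a mimic, against 81.0, 85.8 and 86.0 CPM under control mimic. Every miR-27a library lay above every control library of the same kind of RNA, and pulldown miR-27a replicate 2 was the lowest of its group.

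**Figure D1:**
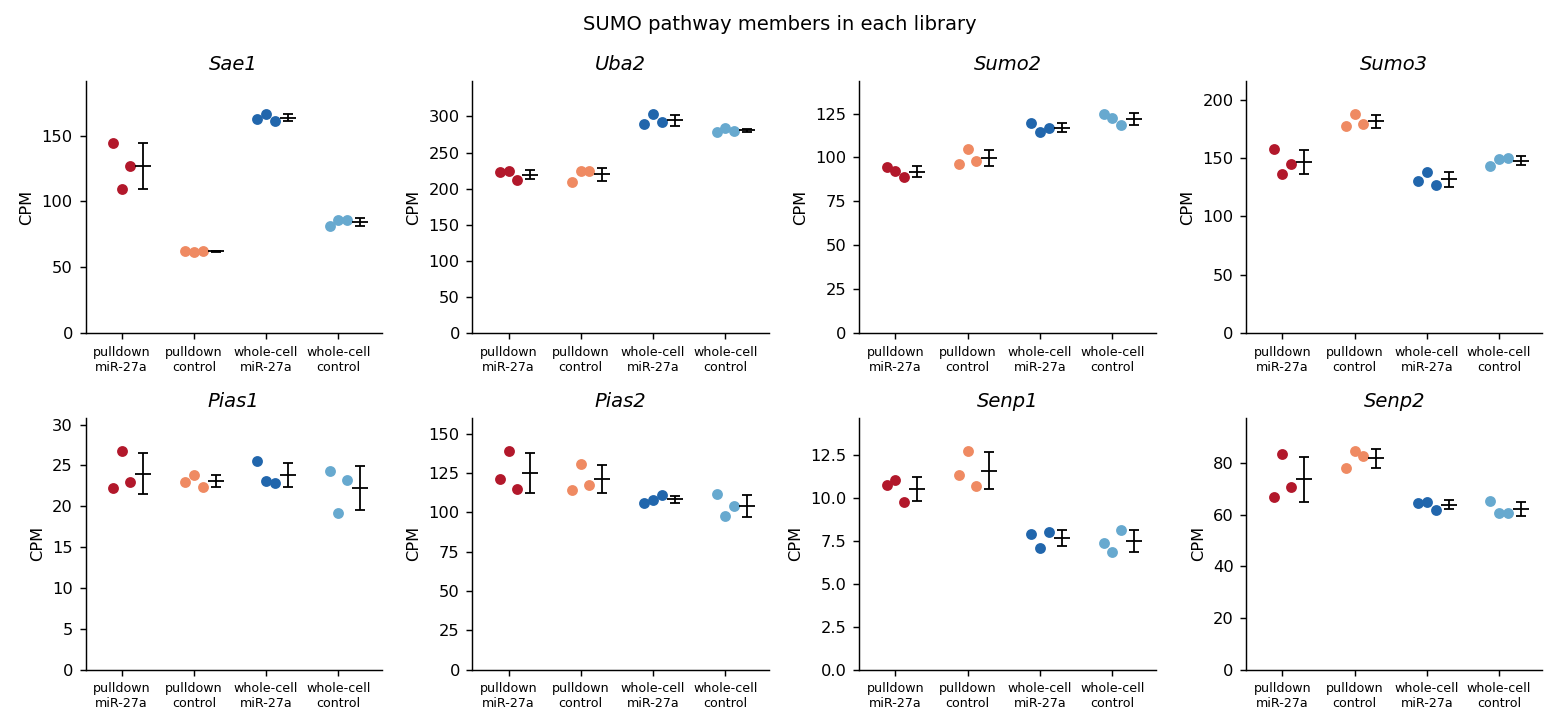
Level of each of the 8 SUMO pathway members in CPM (linear axes from 0) in the 4 groups; points are libraries, and the black bar beside them is the mean ± SD (n = 3). Sae1 is at 109 to 144 CPM in pulldown miR-27a against 61.3 to 62.3 CPM in pulldown control libraries, and Uba2 overlaps between them.

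In pulldown RNA, measured in separate libraries, Sae1 rose by 1.01 ± 0.10 on the log2(CPM + 1) scale (SE, n = 3 each), a 2.02-fold difference, with an adjusted p = 9.04e-06 by limma with Benjamini-Hochberg adjustment over 13586 genes. Its size ranked 66th among those genes. Over the 15 alternatives the change ran from 0.92 to 1.12 and the highest adjusted p was 0.00103. In whole-cell RNA the log2 change was 0.95 ± 0.04, or 1.93-fold, and ranked 26th of 13393 genes, as a description. The log2(CPM + 1) scale slightly understates changes, more so for low genes.

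Uba2 (ENSMUSG00000052997.15, chromosome 7, 34140688 to 34169599, minus strand) encodes the catalytic E1 subunit. Its levels in pulldown RNA were 223, 224 and 212 CPM under miR-27a mimic, against 209, 225 and 225 CPM under control mimic, which overlap. Uba2 had a log2 change of -0.00011 in pulldown RNA (95% interval -0.17 to 0.17, adjusted p = 0.999 by limma). In whole-cell RNA Uba2 was at 289, 304 and 292 CPM under miR-27a mimic, against 279, 283 and 279.8 CPM under control mimic. There the groups did not overlap, at a log2 change of 0.07 ± 0.03.

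The E1 needs both subunits, so the ratio of their mRNAs was taken in each library, per kb of annotated exon (2.597 kb for Sae1 and 6.033 kb for Uba2). In pulldown RNA the ratio of Sae1 to Uba2 was 1.51, 1.13 and 1.39 under miR-27a mimic, against 0.692, 0.632 and 0.644 under control mimic. In whole-cell RNA it was 1.31, 1.27 and 1.28 under miR-27a mimic, against 0.675, 0.703 and 0.714 under control mimic, as a description. The ratio lay above 1 in all 6 miR-27a libraries and below 1 in all 6 control libraries. In pulldown RNA the mean was 1.34 ± 0.19 against 0.656 ± 0.031 (SD, n = 3 each), with exact permutation p = 0.10, two-sided, the smallest that 3 against 3 freely exchanged libraries allow (adjusted p = 0.15 over the 6 ratio tests made). With libraries paired by replicate number the ratio was higher in 3 of 3 pairs, at an exact permutation p = 0.25, the smallest that 3 pairs allow. Exon length is the union over annotated transcripts, so a ratio of 1 is not a measure of equal molecules. The side of 1 on which a ratio lies depends on the lengths used.

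**Figure D2:**
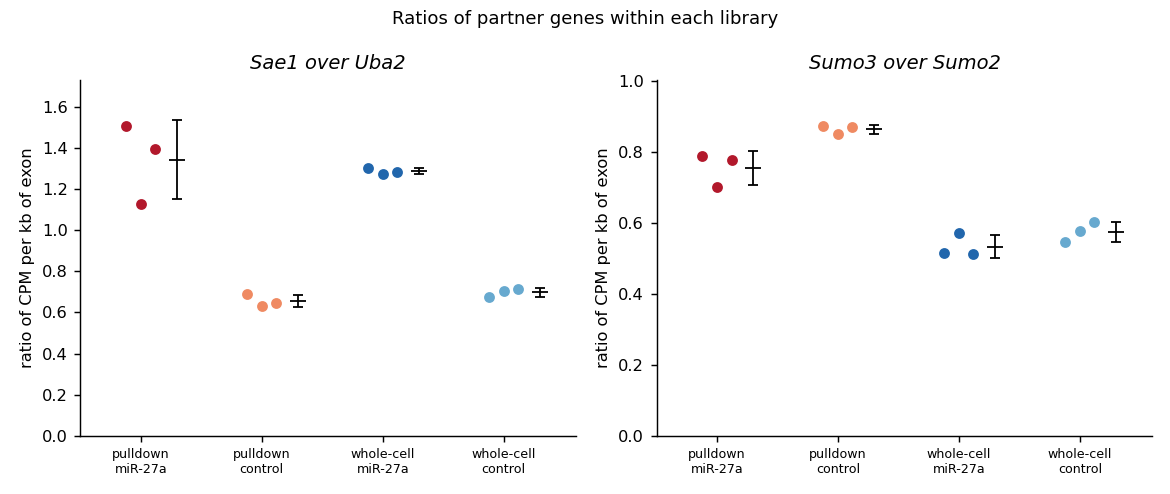
Ratio of CPM per kb of exon between partner genes in each library (linear axes from 0; points are libraries, black bars the mean ± SD, n = 3). Sae1 over Uba2 is 1.13 to 1.51 in the miR-27a libraries and 0.632 to 0.714 in the control libraries, and Sumo3 over Sumo2 is higher in pulldown than in whole-cell RNA.

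Sumo3 moved the opposite way and by less. Sumo3 (ENSMUSG00000020265.16, chromosome 10, 77606097 to 77618331, plus strand) encodes one of the chain-forming SUMO proteins. Sumo3 was at 158, 137 and 145 CPM in pulldown miR-27a libraries, against 177, 188 and 179 CPM in pulldown control libraries. In whole-cell RNA it was at 130.01, 138 and 126 CPM under miR-27a mimic, against 143, 149 and 150.2 CPM under control mimic. In neither kind of RNA did the groups overlap.

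The pulldown difference of Sumo3 was a log2 change of -0.31 ± 0.08 (SE, adjusted p = 0.0202 by limma). It kept its direction in all 15 alternatives, from -0.36 to -0.26. The call was lost with pulldown miR-27a replicate 3 left out (adjusted p = 0.0922) and with pulldown control replicate 1, 2 or 3 left out (adjusted p = 0.070, 0.0943 and 0.0904), while the alternatives together spanned 0.00126 to 0.0943 by limma. The whole-cell log2 change was -0.17 ± 0.04.

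Sumo2 (ENSMUSG00000020738.16, chromosome 11, 115523102 to 115536276, minus strand), its near twin, was at 94.8, 92.5 and 88.7 CPM in pulldown miR-27a, against 96.3, 105 and 97.8 CPM in pulldown control libraries. The groups did not overlap, but the log2 change of -0.11 ± 0.08 did not pass (95% interval -0.29 to 0.06, adjusted p = 0.411 by limma). In whole-cell RNA Sumo2 was at 119.7, 115 and 117 CPM under miR-27a mimic, against 125, 122 and 118 CPM under control mimic, which overlap. Per kb of exon, the ratio of Sumo3 to Sumo2 was 0.789, 0.700 and 0.777 in pulldown miR-27a, against 0.873, 0.850 and 0.870 in pulldown control libraries (exact permutation p = 0.10, two-sided, adjusted p = 0.15 over 6 tests, and p = 0.25 with libraries paired by number). Sumo2 has 13 annotated pseudogene copies with at least 90% identity over at least 50% of its coding length, the highest at 100% identity. The 1 copy in the table held 39 reads over 12 libraries, against 24635 for Sumo2. The other copies have no row, so reads on them are not known. Sumo3 has 1 such copy (94.6% identity) and Senp2 1 (91.0% identity), not analysed here. Exons of Sumo3 also overlap those of the protein-coding gene Gm49325 on the same strand, also not analysed here. Reads shared between a member and these genes could not be told apart.

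The ligase and protease genes did not pass in pulldown RNA. Pias1 (ENSMUSG00000032405.10, chromosome 9, 62878368 to 62987924, minus strand) was at 22.2, 26.8 and 22.9 CPM in pulldown miR-27a, against 23.0, 23.9 and 22.4 CPM in pulldown control libraries. Pias2 (ENSMUSG00000025423.16, chromosome 18, 77065208 to 77153800, plus strand) was at 121, 139 and 115 CPM in pulldown miR-27a, against 114, 131 and 117 CPM in pulldown control libraries. Both ligase genes overlapped between mimics, with 95% intervals of the log2 change from -0.17 to 0.27 for Pias1 and from -0.15 to 0.24 for Pias2 (adjusted p = 0.812 and 0.808 by limma).

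Senp1 (ENSMUSG00000033075.17, chromosome 15, 98038744 to 98093744, minus strand) was the lowest member, at 10.7, 11.03 and 9.73 CPM in pulldown miR-27a, against 11.3, 12.7 and 10.7 CPM in pulldown control libraries. Its annotated exons overlap those of Pfkm on the other strand, and the sources used here do not give the strand setting of the counting, so reads of the pair cannot be told apart. Senp2 (ENSMUSG00000022855.9, chromosome 16, 22009484 to 22049269, plus strand) was at 67.04, 83.6 and 70.7 CPM in pulldown miR-27a, against 77.9, 84.8 and 82.7 CPM in pulldown control libraries. The protease genes had log2 changes of -0.13 ± 0.12 (Senp1) and -0.15 ± 0.09 (Senp2), with adjusted p = 0.554 and 0.33 by limma. Without pulldown miR-27a replicate 2, the high library in its group, Senp2 passed at -0.24 (limma, adjusted p = 0.0243), while the alternatives together spanned 0.0243 to 0.611.

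In whole-cell RNA these 4 genes overlapped between mimics. Pias1 was at 22.9 to 25.5 CPM under miR-27a mimic, against 19.2 to 24.4 CPM under control mimic, and Pias2 at 106 to 111 CPM against 97.5 to 111 CPM. Senp1 was at 7.10 to 7.99 CPM under miR-27a mimic, against 6.86 to 8.14 CPM under control mimic, and Senp2 at 61.8 to 64.9 CPM against 60.5 to 65.5 CPM. The log2 changes were between 0.03 (Senp1) and 0.10 (Pias1).

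Of the 8 members, 1 was called higher and 1 lower in pulldown RNA, against 13.1% of all genes called in either direction, 6.05% higher and 7.06% lower. The groups did not overlap for 1 member that was higher (Sae1) and 2 that were lower (Sumo2 and Sumo3), against 14.4% and 16.6% of all genes, 30.9% in all. The median log2 change of the members was -0.06, against -0.00093 over all genes. With replicate number as a block, 2743 genes were called in pulldown RNA in place of 1781, with Sae1 and Sumo3 called in both fits. In whole-cell RNA 3 of 8 members had no overlap between mimics (Sae1 and Uba2 higher, Sumo3 lower), against 38.8% of all genes (20.3% higher and 18.4% lower), and 24.9% of genes were called.

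**Figure D3:**
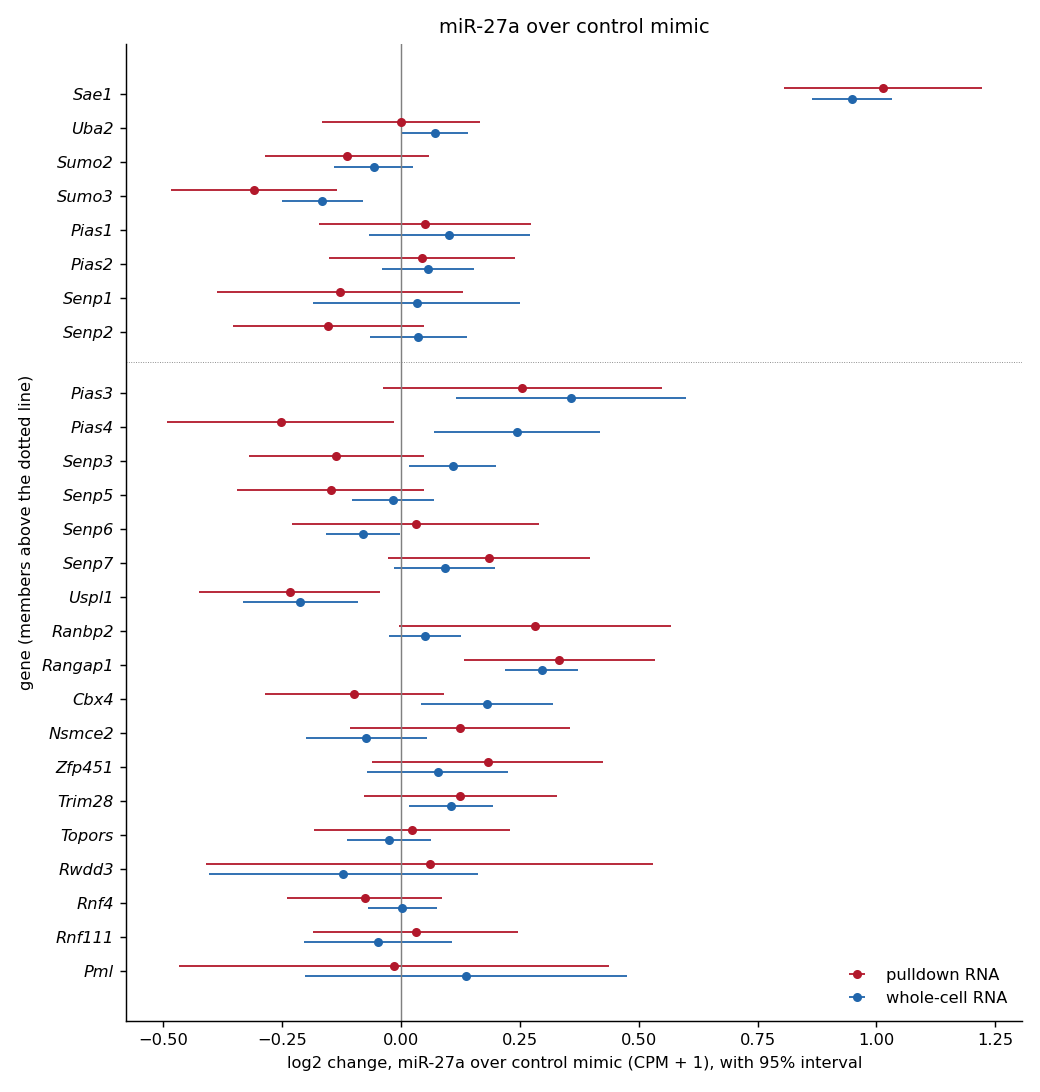
Log2 change of CPM + 1, miR-27a over control mimic, for the 8 members (above the dotted line) and 18 other SUMO pathway genes, in pulldown RNA (red, upper of each pair) and whole-cell RNA (blue); bars are 95% intervals from limma. Sae1 lies at 1.01 in pulldown and 0.95 in whole-cell RNA, and every other gene drawn lies between -0.31 and 0.36.

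The rest of the pathway was read from a list of 20 other SUMO genes, of which 18 were in the table. Like the members, this list was chosen with earlier results of these data known. The p-values of its genes, in whole-cell RNA above all, may therefore not be independent of that choice. In pulldown RNA 1 of 18 was called higher and 0 lower, against 6.05% and 7.06% of all genes. That gene was Rangap1, the first SUMO target described and a part of the nuclear pore's SUMO ligase complex. Rangap1 was at 171, 132 and 158 CPM in pulldown miR-27a, against 121, 117 and 126 CPM in pulldown control libraries, a log2 change of 0.33 ± 0.09 (adjusted p = 0.029 by limma). In whole-cell RNA Rangap1 was at 215, 215 and 221 CPM under miR-27a mimic, against 172, 183 and 175 CPM under control mimic (log2 change 0.30 ± 0.04, adjusted p = 2e-06 by limma).

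Of the same 18 genes in whole-cell RNA, 3 rose and 1 fell, against 13% of all genes called higher and 11.9% lower. Besides Rangap1, the ligase genes Pias3 and Pias4 rose, at log2 changes of 0.36 ± 0.12 and 0.24 ± 0.08, and Uspl1, a SUMO isopeptidase gene of Cajal bodies, fell by 0.21 ± 0.06 (adjusted p = 0.0272, 0.037 and 0.00953 by limma). In pulldown RNA Pias3 was at 0.25, Pias4 at -0.25 and Uspl1 at -0.23 on the same scale, none past the threshold. The median log2 change of the 18 genes was 0.03 in pulldown and 0.06 in whole-cell RNA, against -0.00093 and 0.0097 over all genes.

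Genes of the parallel enzyme cascades, for ubiquitin, NEDD8, UFM1, ISG15, URM1 and the autophagy modifiers, were a second list of 18, of which 16 were tested. In pulldown RNA 0 of 16 were called (limma, adjusted p from all genes), against 13.1% of all genes. In whole-cell RNA 5 fell and 0 rose, against 11.9% and 13% of all genes. The largest of these falls were Atg10 at -0.34 ± 0.11, Atg3 at -0.15 ± 0.05, both E2-like enzymes of autophagy, and Ufc1, the UFM1 E2, at -0.12 ± 0.04.

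The 5 genes whose levels were most like those of Sae1 over the 12 libraries were Kif20a, Cdca8, Tk1, Ncaph and Fam64a, with Pearson's r of log2(CPM + 1) from 0.972 to 0.981. Kif20a encodes a kinesin of cytokinesis, Cdca8 the chromosomal passenger protein borealin, Tk1 thymidine kinase and Ncaph a condensin subunit. These are a description over libraries that share the 4 groups, and the group differences alone give high values. Kif20a averaged 68.0 CPM in pulldown miR-27a, 34.3 in pulldown control, 73.4 in whole-cell miR-27a and 42.2 in whole-cell control libraries.

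Proliferation genes were also higher under miR-27a mimic. Their list, like the others, was chosen with earlier results of these data known, so its counts are a description. Over the 12 libraries their Pearson's r with Sae1 ran from 0.658 (Plk1) to 0.971 (Aurkb). All 13 on the list, which ran from Mki67 to Pcna, were called higher under miR-27a mimic in pulldown RNA (against 6.05% of all genes) and all 13 in whole-cell RNA (against 13%). Their summed level was 1676 to 1750.2 CPM in pulldown miR-27a, against 861 to 964 CPM in pulldown control libraries, and 1993 to 2050.4 CPM in whole-cell miR-27a, against 1312 to 1375 CPM in whole-cell control libraries. Astrocyte markers were at 3335 to 3637 CPM in pulldown miR-27a, against 4607 to 4752 CPM in pulldown control libraries, with 4 of 5 called lower (against 7.06% of all genes). In whole-cell RNA the astrocyte sum was 5822 to 5877 CPM under miR-27a mimic, against 7012 to 7026 CPM under control mimic, with 5 of 5 called lower (against 11.9% of all genes). Markers of mature oligodendrocytes had 4 of 5 called lower in pulldown and 3 of 5 in whole-cell RNA, and OPC markers had 3 of 6 called higher in pulldown RNA. In whole-cell RNA 4 of 6 OPC markers were called higher and 1 lower, Pdgfra, the PDGF receptor gene, at a log2 change of -0.14 (adjusted p = 0.00186 by limma). The part of these shifts in the Sae1 and Sumo3 results was not tested, and in bulk RNA a change in the share of cells of a type and a change in RNA per cell cannot be told apart.

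Pulldown RNA was then set against whole-cell RNA under each mimic, which compares what was captured with what the cells held. These contrasts use the whole-cell values taken to have entered the choice of genes, so their p-values are not independent of it. The E1 genes and Sumo2 were lower in pulldown RNA under both mimics, and Sumo3, Pias2, Senp1 and Senp2 were higher. Under miR-27a mimic Sae1 was at 109 to 144 CPM in pulldown against 161 to 166 CPM in whole-cell RNA, a log2 change of -0.37 ± 0.08 (adjusted p = 0.000386 by limma). Under control mimic it was at 61.3 to 62.3 against 81.0 to 86.0 CPM, at -0.44 ± 0.08 (adjusted p = 7.24e-05 by limma). Neither pair of groups overlapped.

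Uba2 fell alike, to 212 to 224 CPM in pulldown against 289 to 304 CPM in whole-cell RNA under miR-27a mimic, and to 209 to 225 against 279 to 283 CPM under control mimic. Its log2 changes were -0.42 ± 0.05 and -0.35 ± 0.05 (adjusted p = 2.15e-06 and 1.63e-05 by limma). The ratio of Sae1 to Uba2 was 1.34 ± 0.19 in pulldown against 1.29 ± 0.02 in whole-cell RNA under miR-27a mimic, and 0.656 ± 0.031 against 0.697 ± 0.020 under control mimic, each overlapping between pulldown and whole-cell (exact permutation p = 0.70 and 0.20, two-sided, n = 3 each). Sumo2 was at -0.34 ± 0.06 under miR-27a mimic and -0.29 ± 0.06 under control mimic (adjusted p = 5.05e-05 and 0.000277 by limma).

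The ratio of Sumo3 to Sumo2 was higher in every pulldown library than in every whole-cell library under either mimic. Per kb it was 0.755 ± 0.048 in pulldown against 0.533 ± 0.033 in whole-cell RNA under miR-27a mimic, and 0.864 ± 0.013 against 0.575 ± 0.028 under control mimic (SD, n = 3 each, exact permutation p = 0.10 for both, two-sided, the smallest possible). Sumo3 alone was at 0.15 ± 0.06 under miR-27a mimic, where 1 whole-cell library lay within the pulldown range, and 0.30 ± 0.06 under control mimic (adjusted p = 0.0405 and 0.000429 by limma).

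Among the regulators, Senp1 showed the largest difference, at 9.73 to 11.03 CPM in pulldown against 7.10 to 7.99 CPM in whole-cell RNA under miR-27a mimic (log2 change 0.41 ± 0.11, adjusted p = 0.00264 by limma) and 10.7 to 12.7 against 6.86 to 8.14 CPM under control mimic (0.57 ± 0.11, adjusted p = 0.00013 by limma). Senp2 was at 0.20 ± 0.08 and 0.39 ± 0.08 (adjusted p = 0.0281 and 0.000195 by limma), and Pias2 at 0.20 ± 0.08 and 0.21 ± 0.08 (adjusted p = 0.0274 and 0.0197 by limma), where the value under miR-27a mimic is followed by that under control mimic. Pias1 had log2 changes of 0.0069 ± 0.10 and 0.06 ± 0.10, whose 95% intervals, from -0.19 to 0.21 and from -0.14 to 0.26, include 0 (adjusted p = 0.956 and 0.62 by limma).

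These calls, 7 of 8 members under each mimic, stand against 60.2% of all genes called under miR-27a mimic and 62% under control mimic, and a call alone is therefore not particular to these genes. The groups did not overlap for 6 members under miR-27a mimic, against 63.9% of all genes (31.8% higher and 32.1% lower), and for 7 under control mimic, against 67.5% (34.2% higher and 33.3% lower). Over all genes 4064 were higher and 4286 lower under miR-27a mimic (5009 and 3312 with library totals), and 4392 higher and 4209 lower under control mimic (5176 and 3401 with library totals). All 7 members kept their direction in every alternative. Under miR-27a mimic the weaker calls were not stable over the 21 alternatives, and with whole-cell miR-27a replicate 1 left out the count was 4 of 8. Sumo3 was called in 13 of 21: it missed the threshold in a fit of the 6 libraries compared (adjusted p = 0.0978 by limma), and with 1 library left out it missed it for pulldown miR-27a replicates 1 and 3 (0.169 and 0.0704), pulldown control replicate 3 (0.0506), whole-cell miR-27a replicates 1 and 3 (0.106 and 0.154) and whole-cell control replicates 2 and 3 (0.0529 and 0.0545). Senp2 was called in 16 of 21: it missed the threshold in the fit of 6 libraries (adjusted p = 0.0673 by limma), without pulldown miR-27a replicate 2 (0.149) and without whole-cell miR-27a replicate 1, 2 or 3 (0.0541, 0.0502 and 0.0956). Pias2 was called in 17 of 21: it missed the threshold with no filter on low values (adjusted p = 0.0511 by limma), without pulldown miR-27a replicate 2 (0.107) and without whole-cell miR-27a replicate 1 or 2 (0.083 and 0.0661). The Pias2 call under control mimic was lost without pulldown control replicate 2 (adjusted p = 0.108 by limma) or whole-cell control replicate 2 or 3 (adjusted p = 0.102 and 0.0513 by limma).

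**Figure D4:**
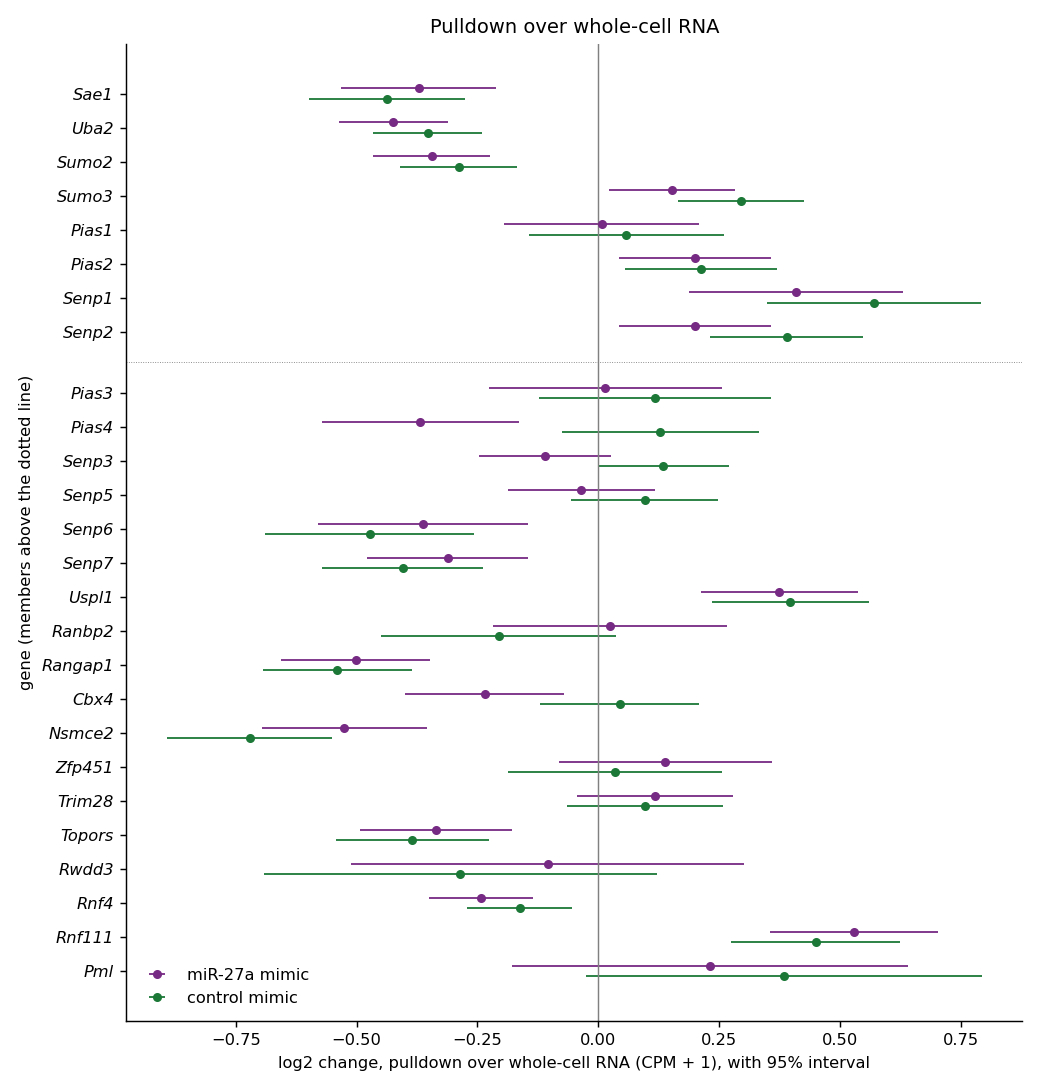
Log2 change of CPM + 1, pulldown over whole-cell RNA, for the 8 members (above the dotted line) and 18 other SUMO pathway genes, under miR-27a mimic (purple, upper of each pair) and control mimic (green); bars are 95% intervals from the limma fit of 12 libraries. Sae1, Uba2 and Sumo2 lie below 0 and Sumo3, Pias2, Senp1 and Senp2 above 0 under both mimics.

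Of the 18 other SUMO genes, 2 were higher and 8 lower in pulldown RNA under miR-27a mimic, and 2 were higher and 6 lower under control mimic, against 29.3% and 30.9% of all genes under miR-27a mimic and 31.7% and 30.3% under control mimic. The ligase gene Nsmce2 was at log2 changes of -0.53 ± 0.08 and -0.72 ± 0.08, and Rnf111, a ubiquitin ligase that recognises SUMO chains, at 0.53 ± 0.08 and 0.45 ± 0.08, under miR-27a and control mimic (all past the threshold by limma). The genes of the parallel cascades had 11 and 12 of 16 lower and 0 higher, with medians of -0.40 and -0.49, against -0.01 and 0.02 over all genes. The largest of these falls were Uba3, the NEDD8 E1 gene, at -0.81 and -0.83, and Atg3 at -0.76 and -0.83. Markers of cell types differed between the kinds of RNA as well: 5 of 5 of mature oligodendrocytes were lower and 5 of 6 of OPCs higher in pulldown RNA under each mimic. Of 5 astrocyte markers 3 were lower under each mimic, with 0 higher under miR-27a and 1 under control mimic. Of 5 endothelial, mural and fibroblast markers tested, 3 were higher and 1 lower under each mimic. Of 13 proliferation genes 6 were lower and 1 higher under miR-27a mimic, and 9 lower and 2 higher under control mimic. The part of these lists in the members' differences was not tested.

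Whether the mimic difference itself differed between pulldown and whole-cell RNA was tested over the 12 libraries. That contrast contains the whole-cell difference as well, so it is not independent of their choice. Of the 8 members, 0 passed by limma, with adjusted p from 0.477 (Senp2) to 0.979 (Pias2), against 1.07% of all genes (0.339% higher and 0.735% lower, that is 47 and 102 genes, and 53 and 72 with median-of-ratios scaling). An unadjusted p under 0.05 by limma was found for 0 of the 8, against 1804 of 13875 genes. With limma voom on recovered reads 0 of the 8 were called, against 40 higher and 79 lower over all genes. For Sae1 the difference was 0.07 ± 0.11 (95% interval -0.16 to 0.29) and for Sumo3 -0.14 ± 0.09 (95% interval -0.33 to 0.04) on the log2 scale. The larger fall of Sumo3 in pulldown RNA is therefore not shown to differ from that in whole-cell RNA.

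Per kb of exon, Sumo2 was the highest member in all 4 groups, at 53.0 ± 1.8 CPM per kb in pulldown miR-27a, 57.4 ± 2.6 in pulldown control, 67.4 ± 1.5 in whole-cell miR-27a and 70.2 ± 1.9 in whole-cell control libraries (SD, n = 3 each). Sae1 was the second highest in both miR-27a groups, at 48.9 ± 6.8 in pulldown and 62.9 ± 1.0 in whole-cell RNA. Its rank was 5 in pulldown control libraries, at 23.9 ± 0.23, and 4 in whole-cell control libraries, at 32.4 ± 1.1. These ranks rest on the union of exons over annotated transcripts and could differ with another length. For Uba2 the union is 6.033 kb, while its longest coding part has 1917 bases and its longest 3′ UTR 597 bases. For Sae1 the union is 2.597 kb, with 1053 coding and 787 UTR bases. With these coding and UTR lengths in place of the union, Uba2 would lie above Sae1 in the miR-27a groups as well. In pulldown miR-27a libraries Sumo2, Sae1 and Sumo3 overlapped with their neighbours in that order, and so did Uba2 and Pias2 in both pulldown groups. Senp2, Pias1 and Senp1 were the lowest 3 in every group, in that order and without overlap, with Senp1 at 0.63 to 0.98 CPM per kb on average.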

How the data were processed

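Per the series' design text, the authors made TruSeq Stranded Total RNA libraries with Ribo-Zero Globin depletion, trimmed reads with skewer, aligned them with HISAT2 to GRCm38, counted genes with featureCounts (Subread) and normalised in R with edgeR. The sources used here give neither versions nor the strand setting, and the submitters' processing notes also name mm8, without a role. The authors deposited log2 CPM in 1 table of 20540 genes. The lowest value, -6.27, was shared by all libraries, and after it was subtracted on the linear scale 100% of values were whole multiples of 1 step (tolerance 0.01 reads), so CPM and reads were recovered, with normalisation factors from 0.961 to 1.055. Any reads on genes missing from the table are not in the totals.

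limma 3.58.1 (R 4.3.3) was run on log2(CPM + 1), with empirical Bayes trend, two-sided, with Benjamini-Hochberg adjustment over the genes that reached 1 CPM in 3 or more of the fitted libraries, and a threshold of 0.05. Mimics were compared over 6 libraries, and the other contrasts over 12 in 1 fit of 4 group means. Each fit has 1 estimate of the spread per gene, shared by its groups, and the p-values rest on it. The groups could differ in spread: for Sae1 the SD was 17.6 CPM in pulldown miR-27a, 0.60 in pulldown control, 2.7 in whole-cell miR-27a and 2.8 in whole-cell control libraries. The fit was tested on simulated counts with 1 setting of the spread for all libraries, so that test does not cover groups of unequal spread. The members and gene lists were chosen with earlier results of these data known, so p-values of listed genes and markers may not be independent of that choice. All 8 members are named by rule. Other SUMO genes are named where past the threshold between mimics, other cascades by their 3 largest changes past it, and 5 genes by likeness to Sae1. Nsmce2 and Rnf111 were named besides after their values were seen. Some listed genes are not reported here. Desi1 and Desi2 were not analysed here.

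Same-numbered pulldown libraries deviated together from their group means (correlations over genes 0.135, 0.275 and 0.107), so replicate numbers were taken as pairs there, from the data and not from the labels. Correlations of this size do not establish that the libraries are pairs. The main fits did not use these pairs, and the replicate block was an alternative. Replicate numbers were not taken as pairs in whole-cell RNA (0.00086, -0.028 and -0.034). Nor were they between pulldown and whole-cell RNA, where some pairs were under 0.1. There the correlations were 0.015, 0.161 and 0.132 under miR-27a mimic and -0.055, -0.097 and 0.012 under control mimic. Alternatives were other pseudocounts, filters, scalings, limma voom, the replicate block (for the ratios, pairing was added after the data were seen), other sets of libraries in the fit and leaving out each library. Python 3.11.15, pandas 2.3.3, numpy 2.4.6, scipy 1.17.1 and matplotlib 3.10.9 were used.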

Additional observations from a re-analysis of the deposited data

How the results depend on the processing

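Sae1 kept its direction in all 15 alternatives of each mimic comparison, and its whole-cell log2 change ran from 0.92 to 0.96 without 1 library each. The number of members called in pulldown RNA was 2, and 1 to 3 without 1 library each. Pulldown against whole-cell RNA gave 7 members called under each mimic, with 4 to 7 under miR-27a and 6 to 7 under control mimic without 1 library each, and the difference of differences gave 0 throughout. Counts over all genes moved more. In whole-cell RNA 3335 genes were called, 1415 with all 12 libraries in 1 fit and 2379 to 3294 without 1 library each. In pulldown RNA 1781 were called, 2743 with the replicate block, 3051 with all 12 libraries in 1 fit and 969 to 2691 without 1 library each. The difference of differences gave 149, 73 with no filter on low values and 43 to 473 without 1 library each. Pulldown against whole-cell RNA gave 8350 (7429 to 8441) under miR-27a and 8601 (7777 to 9147) under control mimic. Where replicate numbers were not taken as pairs, the block changed no count by over 1.5 times, and it changed no member's call in any comparison. Leaving out a library gives fewer samples, but some counts rose. The highest, 2691 in pulldown RNA and 473 for the difference of differences, were both found without pulldown miR-27a replicate 2. The cause of these moves was not tested. Counting error weighs most on Senp1, the member with the fewest reads (116 to 330 per library).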

Other observations

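The 6 tested genes nearest to Sae1 on chromosome 7 had smaller differences between mimics than Sae1. They were picked after the values of Sae1 were seen. Bbc3, a p53 target gene that promotes cell death, ends 2.029 kb from Sae1 and had log2 changes between mimics of -0.11 in pulldown and 0.23 in whole-cell RNA. Zc3h4, 13.1 kb away on the other side, was at -0.0037 and 0.03, and Ccdc9, 33.4 kb away, at 0.0071 and 0.14. Dhx34, Tmem160 and Npas1, at 65.0 to 98.2 kb, were at 0.02, 0.10 and -0.01 in pulldown RNA and at 0.03, 0.22 and 0.25 in whole-cell RNA. The pulldown differences of these 6 genes had adjusted p from 0.55 to 0.987 by limma.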
